A study of Mus musculus with 3 samples.

Results

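Inverted Sμ to Sγ1 junctions are joins in which a broken end in the switch region Sμ was fused to the switch region Sγ1 in the orientation that turns the intervening DNA round instead of removing it. They were taken from high-throughput genome-wide translocation sequencing (HTGTS), which starts from a primer in the 5′ part of Sμ (the bait side) and reads through each junction into its partner sequence (the prey). A junction was counted as inverted when its prey lay in the Sγ1 window, chr12:114558000-114588000 in mm9, on the + strand. The name thus rests on orientation: a read covers only that junction, and how the other broken ends were joined was not seen. The 3 deposited libraries held 71 such junctions among 560 Sγ1 junctions and 2995 junctions in all. The junction totals were 1681 and 472 in PQR/PQR replicates 1 and 2 and 842 in DNA-PKcs-/- replicate 5. The 2 pools that the authors deposited, 1 per genotype, held 687 among 9443 Sγ1 junctions and 16829 junctions in all (4167 for PQR/PQR and 12662 for DNA-PKcs-/-).

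The cells were CD43- splenic B cells of 129 mice with preassembled IgH and IgK loci, activated in culture over 4 days by IL-4 (20 ng/mL) together with anti-CD40 (1 ng/mL). There were 2 DNA-PKcs PQR/PQR libraries (replicates 1 and 2), in which the allele named PQR alters a phosphorylation cluster of the DNA-dependent protein kinase catalytic subunit, and 1 DNA-PKcs-/- library (replicate 5), which lacks that subunit. The preassembled loci and the culture were shared by both genotypes, wild-type cells are not analysed here, and the labels give neither the age of the mice nor whether the PQR/PQR libraries came from separate mice. The PQR/PQR pool contains both PQR/PQR libraries and the DNA-PKcs-/- pool contains replicate 5, so the remainder of each pool is also given apart.

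In class switch recombination the enzyme AID starts breaks in Sμ and in a downstream switch region, and the ends are joined by end-joining repair, in which DNA-PKcs takes part. A deletional join puts the assembled variable exon in front of a new constant region gene, here that of IgG1. An inverted join turns round the DNA between the breaks. It does not put the variable exon in front of the new constant region gene, so it yields no switched antibody.

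The joined sequences show how these junctions were built. IgH runs along the minus strand of chromosome 12, so higher coordinates lie nearer to Sμ, and the read of an inverted junction runs from the breakpoint towards Sμ. For each library the inverted junction with the longest microhomology (MH, bases that fit both the bait and the prey), the one with the longest insertion (bases that align to neither), and the direct join nearest to Sμ are shown, because they cover the range of structures. Of 2 junctions with MH of 5 bp in PQR/PQR replicate 1, the one nearer to Sμ is shown. Each line gives 15 bases of bait, the junction, and 15 bases of prey. Capitals mark the MH, the inserted bases or, in a direct join, the last bait base and the first prey base.

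PQR/PQR replicate 1, MH, prey chr12:114577504-114577643, + strand: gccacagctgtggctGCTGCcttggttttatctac

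PQR/PQR replicate 1, insertion, prey chr12:114578791-114578873, + strand: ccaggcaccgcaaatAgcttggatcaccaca

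PQR/PQR replicate 1, direct, prey chr12:114578657-114578754, + strand: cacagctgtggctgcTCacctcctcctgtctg

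PQR/PQR replicate 2, MH, prey chr12:114579186-114579303, + strand: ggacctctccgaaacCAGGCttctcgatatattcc

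PQR/PQR replicate 2, insertion, prey chr12:114578217-114578277, + strand: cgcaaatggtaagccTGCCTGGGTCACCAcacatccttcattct

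PQR/PQR replicate 2, direct, prey chr12:114579390-114579501, + strand: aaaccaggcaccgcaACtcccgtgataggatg

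DNA-PKcs-/- replicate 5, MH, prey chr12:114580938-114581097, + strand: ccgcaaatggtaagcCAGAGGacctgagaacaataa

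DNA-PKcs-/- replicate 5, insertion, prey chr12:114569283-114570371, + strand: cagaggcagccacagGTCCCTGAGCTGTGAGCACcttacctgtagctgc

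DNA-PKcs-/- replicate 5, direct, prey chr12:114583198-114583271, + strand: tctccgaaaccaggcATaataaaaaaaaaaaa

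The mm9 sequence around the prey end of the GCTGC join is acagggctcaGCTGCcttgg, around that of the CAGGC join it is acacattcctCAGGCttctc, and around that of the CAGAGG join it is gttgagagctCAGAGGacct. In each, the capitals are the MH and the bases before them were replaced by Sμ in the read. All 47 listed inverted junctions with MH had those bases in the germline prey, as the definition of MH by overlapping alignments nearly requires. The 14-base insert of PQR/PQR replicate 2, TGCCTGGGTCACCA, occurred in 112 of the other 557 listed Sγ1 reads, in 9 on the same strand and in 103 on the other strand. The 19-base insert of DNA-PKcs-/- replicate 5 occurred in 0 of those 557 reads.

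The plot of each listed junction sets the breakpoint position against the overlap or insertion. Positions are given in kb from the middle of the window, 114573000, with positive values towards Sμ. In every library most inverted junctions lay beyond 3 kb on the Sμ side, and the others, apart from 1 DNA-PKcs-/- junction at 0.30 kb, were scattered below the middle.

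**Figure D1:**
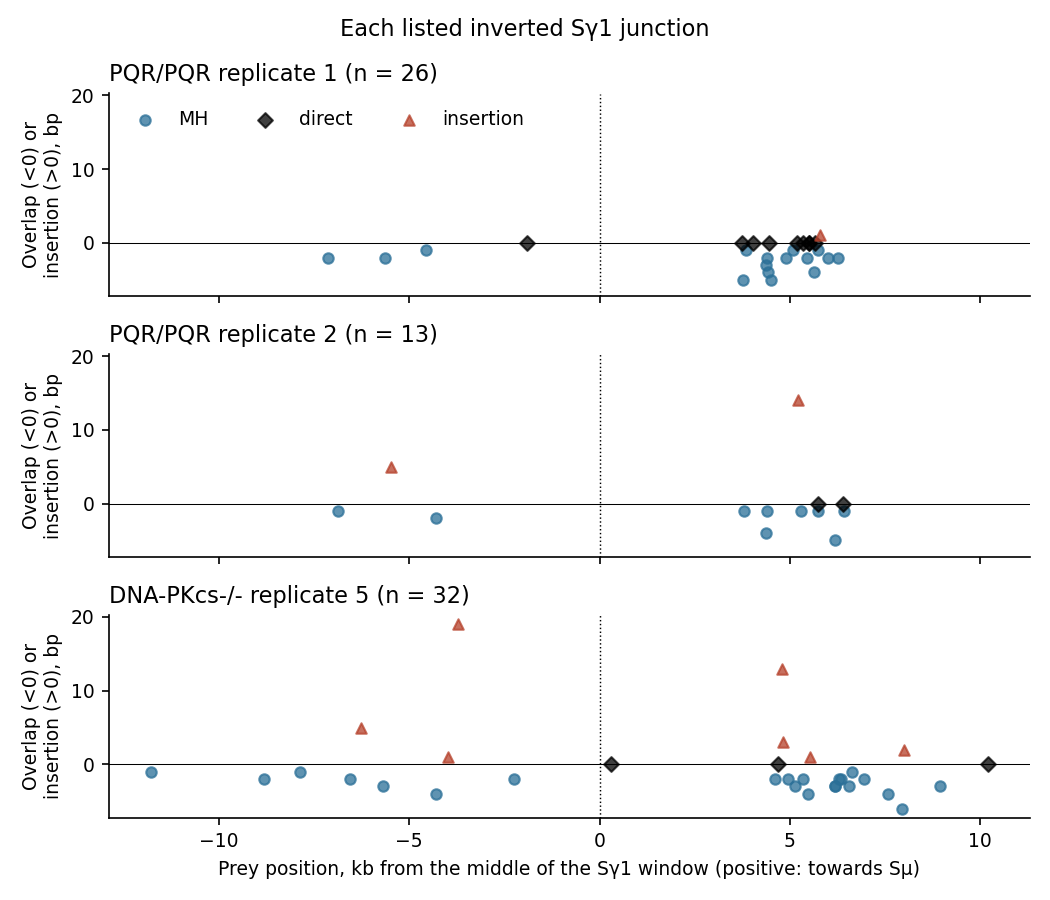
Each point is 1 listed inverted Sγ1 junction, with prey position in kb from the middle of the window on the x axis (positive towards Sμ) and MH (below 0) or insertion length (above 0) in bp on the y axis. Of the 26, 13 and 32 junctions of PQR/PQR replicate 1, PQR/PQR replicate 2 and DNA-PKcs-/- replicate 5, 22, 10 and 22 lie on the Sμ side of the middle.

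Inverted junctions were a minority of Sγ1 junctions in every library. They numbered 26 of 272 (9.56%, Wilson 95% confidence interval 6.61 to 13.6) among the Sγ1 junctions of PQR/PQR replicate 1, and 13 of 77 (16.9%, 10.1 to 26.8) among those of replicate 2, against 32 of 211 (15.2%, 11.0 to 20.6) in DNA-PKcs-/- replicate 5. The PQR/PQR libraries thus lay on either side of the DNA-PKcs-/- library, and the intervals of all 3 overlapped. With 2 libraries against 1, the smallest p that an exact permutation test over libraries can give is 0.333, so such a test cannot pass the threshold of 0.05. In Fisher's exact tests of junctions, which compare libraries and not genotypes, PQR/PQR replicate 1 differed from DNA-PKcs-/- replicate 5 by −5.61 percentage points (adjusted p = 0.224 over 10 comparisons) and PQR/PQR replicate 2 by 1.72 points (adjusted p = 1).

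In the pools the inverted share of Sγ1 junctions was 102 of 2119 (4.81%, 3.98 to 5.81) for PQR/PQR and 585 of 7324 (7.99%, 7.39 to 8.63) for DNA-PKcs-/-. The difference of −3.17 percentage points (95% interval −4.23 to −2.01) had p = 1.75e-06 in Fisher's exact test after Benjamini-Hochberg adjustment over 13 results. This compares 2 pools of junctions, each a single unit, so the spread between mice is not in the p-value. With the deposited libraries in place of the pools the difference was −3.99 points and was not called (adjusted p = 0.309, Fisher's exact test). In the same pools 18.8% of Sμ junctions were inverted for PQR/PQR and 36.7% for DNA-PKcs-/-, and 5.11% and 6.25% of Sε junctions. The Sμ values varied within PQR/PQR, at 18.6% in replicate 1, 36.9% in replicate 2 and 16 of 198 (8.08%) in the pool outside both, against 39.7% in DNA-PKcs-/- replicate 5 and 36.5% in the DNA-PKcs-/- pool outside it.

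The pools and the deposited libraries differed in their make-up. Without its libraries the PQR/PQR pool had Sγ1 prey in 1770 of 2014 junctions (87.9%), while PQR/PQR replicates 1 and 2 had 16.2% and 16.3%. Without its library the DNA-PKcs-/- pool had 7113 of 11820 (60.2%), while DNA-PKcs-/- replicate 5 had 25.1%. The inverted share of Sγ1 junctions was 3.56% in that PQR/PQR remainder and 7.77% in that DNA-PKcs-/- remainder. One sequencing run held PQR/PQR replicate 1 and DNA-PKcs-/- replicate 5, and PQR/PQR replicate 2 came from another. The part of these differences in the results below was not tested.

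In both pools the median position of inverted junctions lay nearer to Sμ than that of deletional ones. Reads of inverted junctions run from the breakpoint towards Sμ and those of deletional junctions away from it. Whether this direction affects where a junction could be aligned was not tested. In the PQR/PQR pool the median prey position was 1.85 kb above the middle for inverted and 0.39 kb above it for deletional junctions. In the DNA-PKcs-/- pool the median was 2.22 kb above the middle for inverted and 0.26 kb below it for deletional junctions. These medians join unlike parts. The median of inverted positions was 4.70 kb in PQR/PQR replicate 1, 5.22 kb in replicate 2 and 1.07 kb in the PQR/PQR remainder, against 5.04 kb in DNA-PKcs-/- replicate 5 and 2.15 kb in the DNA-PKcs-/- remainder. Deletional medians in the same units were −3.51, −1.84 and 0.68 kb for PQR/PQR and −4.69 and −0.18 kb for DNA-PKcs-/-. The middle 50% of inverted positions ran from −0.62 to 4.39 kb in the PQR/PQR pool and from −1.08 to 4.96 kb in the DNA-PKcs-/- pool. Single inverted junctions reached from 114565862 to 114579413 in the PQR/PQR pool and from 114558482 to 114586824 in the DNA-PKcs-/- pool.

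**Figure D2:**
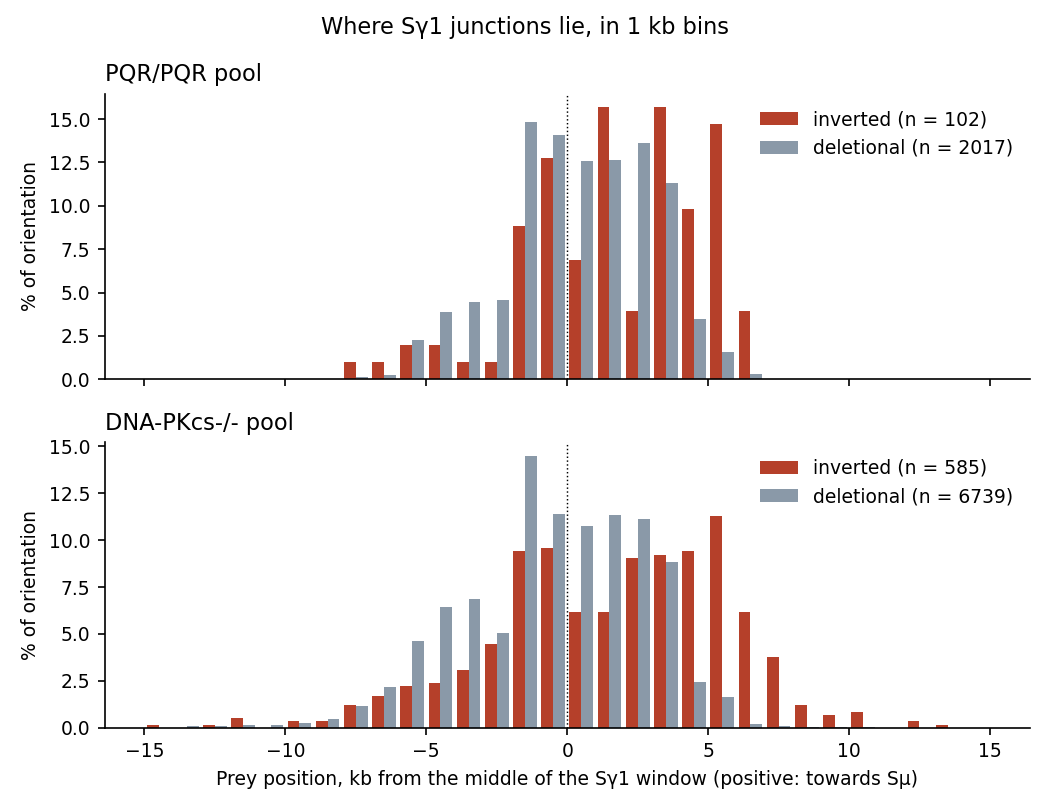
Bars give the percent of inverted and of deletional Sγ1 junctions in each 1 kb bin of the window, by distance in kb from its middle (positive towards Sμ), for the PQR/PQR pool (upper panel) and the DNA-PKcs-/- pool (lower panel). From 4 to 7 kb above the middle the inverted bars stand above the deletional ones in both panels. Above 4 kb lie 28.4% of inverted and 5.35% of deletional PQR/PQR junctions, and 33.8% and 4.53% of those of DNA-PKcs-/-.

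The part of the window on the Sμ side of its middle held 72 of 102 inverted (70.6%) and 1120 of 2017 deletional (55.5%) junctions of the PQR/PQR pool. The difference of 15.1 points (5.36 to 23.3) passed Fisher's exact test with adjusted p = 0.0075. For the DNA-PKcs-/- pool the counts were 377 of 585 inverted (64.4%) and 3140 of 6739 deletional (46.6%), a difference of 17.9 points (13.7 to 21.8, adjusted p = 1.29e-15, Fisher's exact test). Between the pools the inverted junctions differed by 6.14 points (−4.04 to 15.0), which was not called (adjusted p = 0.376, Fisher's exact test).

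Each library showed a wider gap than its pool. On the Sμ side lay 84.6% of inverted and 28.0% of deletional junctions in PQR/PQR replicate 1 (adjusted p = 1.51e-07, Fisher's exact test over 20 comparisons), and 76.9% and 35.9% in PQR/PQR replicate 2 (adjusted p = 0.0426, Fisher's exact test). In DNA-PKcs-/- replicate 5 the values were 68.8% of inverted and 16.2% of deletional junctions (adjusted p = 5.09e-08, Fisher's exact test). Among junctions of the PQR/PQR pool outside its libraries the values were 63.5% and 60.2% and were not called (adjusted p = 0.731, Fisher's exact test), and without PQR/PQR replicate 1 the pool's gap was 6.44 points (adjusted p = 0.411, Fisher's exact test). Among those of the DNA-PKcs-/- pool the values were 64.2% and 47.4% (adjusted p = 6.65e-13, Fisher's exact test).

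**Figure D3:**
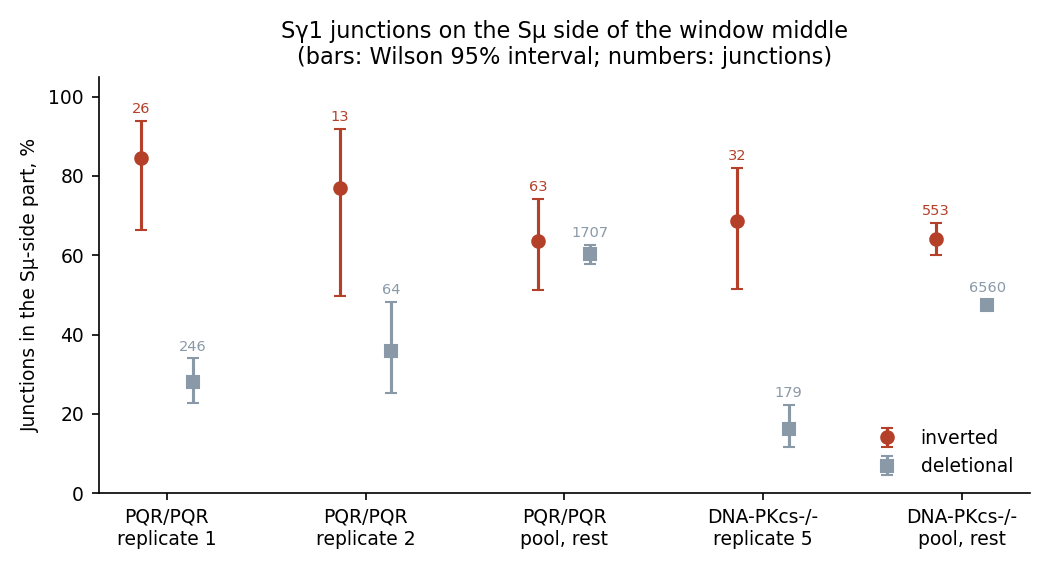
Points give the percent of Sγ1 junctions on the Sμ side of the window's middle, for inverted and deletional junctions, with Wilson 95% intervals and junction numbers. Each library and the remainder of each pool outside its libraries are shown. Inverted junctions are above deletional ones in all 3 libraries. The gap is 3.27 points in the PQR/PQR remainder, where it was not called, and 16.8 points in the DNA-PKcs-/- remainder.

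The span from 1 kb below to 3 kb above the middle, 114572001 to 114576000, separated libraries from remainders. It held 0 of 26 and 0 of 13 inverted junctions in PQR/PQR replicates 1 and 2, which by a floor of 3 counts allows shares of up to 11.5% and 23.1%, and 1 of 32 (3.12%) in DNA-PKcs-/- replicate 5. In the pools outside these libraries it held 40 of 63 (63.5%) for PQR/PQR and 180 of 553 (32.5%) for DNA-PKcs-/-. Deletional junctions showed the same division. Of them 5.28% and 3.12% lay in the span in PQR/PQR replicates 1 and 2 and 2.23% in DNA-PKcs-/- replicate 5, while the remainders had 61.7% for PQR/PQR and 45.8% for DNA-PKcs-/-. An alternative chosen after seeing the data left out that span. The Sμ-side gap between inverted and deletional junctions was then 37.2 points in the PQR/PQR pool and 38.2 points in the DNA-PKcs-/- pool. Leaving it out removes every junction from the middle to 3 kb above, so the Sμ side then means beyond 3 kb. In the PQR/PQR pool it also takes out 40 of the 63 inverted junctions outside the libraries. These values are therefore not comparable with the gaps over the whole window.

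From the core of the window the inverted share of both pools climbed towards Sμ. In the PQR/PQR pool it was 3.61% of Sγ1 junctions from 1 kb below to 3 kb above the middle, 6.56% from 3 to 4 kb, 12.5% from 4 to 5 kb, 15 of 47 (31.9%) from 5 to 6 kb and 4 of 10 (40%) beyond 6 kb. In the DNA-PKcs-/- pool the shares in the same zones were 5.68%, 8.29%, 25%, 66 of 177 (37.3%) and 77 of 106 (72.6%, 63.5 to 80.2). Beyond 6 kb, inverted junctions thus outnumbered deletional ones in the DNA-PKcs-/- pool. From 6 to 1 kb below the middle it was 2.42% for PQR/PQR and 4.76% for DNA-PKcs-/-. The far flank, more than 6 kb below the middle, ran against this order, with 2 of 10 (20%) for PQR/PQR and 26 of 335 (7.76%) for DNA-PKcs-/-. The climb was not seen in the PQR/PQR remainder. Its shares were 3.66% in the core, 5.22% from 3 to 4 kb, 3.85% from 4 to 5 kb and 0 of 9 from 5 to 6 kb. It held 0 junctions beyond 6 kb. In the DNA-PKcs-/- remainder the share was 5.66% in the core and 72.2% beyond 6 kb. The zones were set with the positions in view, so these shares are a description with no test.

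**Figure D4:**
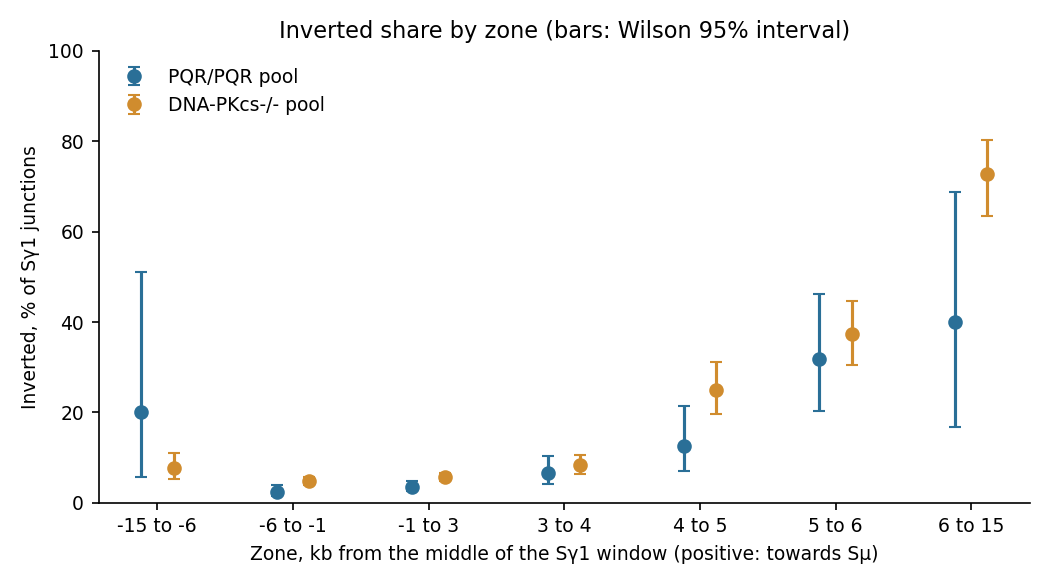
Points give the inverted percent of Sγ1 junctions in zones of the window, from far below its middle to over 6 kb above it (positive towards Sμ), for the PQR/PQR and DNA-PKcs-/- pools, with Wilson 95% intervals. The highest zone shows 40% for PQR/PQR (10 junctions) and 72.6% for DNA-PKcs-/- (106 junctions).

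Of the 29 inverted junctions of the PQR/PQR pool above 4 kb, 1 came from outside its libraries. In that region 19 of 73 Sγ1 junctions (26.0%) were inverted in PQR/PQR replicate 1 and 9 of 29 (31.0%) in PQR/PQR replicate 2, against 21 of 45 (46.7%) in DNA-PKcs-/- replicate 5. Outside these libraries the PQR/PQR pool had 1 of 35 inverted there (2.86%, 0.51 to 14.5) and the DNA-PKcs-/- pool had 177 of 458 (38.6%, 34.3 to 43.2). Below 4 kb the shares in those remainders were 3.57% for PQR/PQR and 5.65% for DNA-PKcs-/-.

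In the libraries the bins of 500 bp with most inverted junctions lay above 4 kb, while in the pools the fullest did not. The fullest bin of PQR/PQR replicate 1, 114578501 to 114579000, held 7 inverted and 4 deletional junctions, followed by 5 and 19 at 114577001 to 114577500 and 4 and 12 at 114578001 to 114578500. The fullest bin of PQR/PQR replicate 2, 114579001 to 114579500, held 3 and 3, and 3 further bins held 2 inverted junctions each. The fullest bin of DNA-PKcs-/- replicate 5, 114577501 to 114578000, held 5 inverted and 7 deletional junctions, and its bin at 114579001 to 114579500 held 4 inverted and 0 deletional ones, while 3 further bins held 3 inverted junctions each. In the pools the fullest bin lay in the core of the region, with 11 inverted and 156 deletional junctions at 114572001 to 114572500 for PQR/PQR and 35 and 434 at 114572501 to 114573000 for DNA-PKcs-/-. Next in the PQR/PQR pool came 114576501 to 114577000 with 10 inverted and 86 deletional junctions, then 114574501 to 114575000 with 9 and 122 and 114578501 to 114579000 with 9 and 8. In the DNA-PKcs-/- pool 3 bins followed with 34 inverted junctions each, beside 233 deletional ones at 114576501 to 114577000, 70 at 114577501 to 114578000 and 58 at 114578001 to 114578500.

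Most inverted junctions had a prey position of their own. The 102 junctions of the PQR/PQR pool lay at 98 positions, 4 of which held 2 junctions each, at 114578505, 114573942, 114572172 and 114572137. The 585 of the DNA-PKcs-/- pool lay at 541 positions, with 4 junctions at 114575219 and 3 each at 114572768 and 114572695. A deletional junction used the same position in 7 of 98 cases (7.14%) in the PQR/PQR pool and in 167 of 541 (30.9%) in the DNA-PKcs-/- pool. The DNA-PKcs-/- pool also holds more deletional junctions, at 4525 positions against 1665 in the PQR/PQR pool. How much overlap this density alone would give was not tested. The 4-base motif AGCT, a hotspot of AID that reads the same on both strands, was present in the 20 germline bases around the prey end in 19 of 71 inverted (26.8%) and 141 of 487 deletional (29.0%) listed junctions. These totals join libraries that differed in direction. The inverted and deletional values were 26.9% and 32.4% in PQR/PQR replicate 1 and 23.1% and 34.4% in PQR/PQR replicate 2. In DNA-PKcs-/- replicate 5 they were 28.1% and 22.3%.

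The share of direct joins among inverted junctions differed between the pools. Direct joins, with neither MH nor insertion, made up 23 of 102 (22.5%, 15.5 to 31.6) in the PQR/PQR pool and 43 of 585 (7.35%, 5.50 to 9.75) in the DNA-PKcs-/- pool. The difference of 15.2 points (7.77 to 24.4) had adjusted p = 6.31e-05 in Fisher's exact test and remained called without either pool's libraries, at 11.8 points (adjusted p = 0.0094, Fisher's exact test). The libraries gave 9 of 26 (34.6%) and 2 of 13 (15.4%) for PQR/PQR replicates 1 and 2, against 3 of 32 (9.38%) for DNA-PKcs-/- replicate 5, a difference over added libraries of 18.8 points that was not called (adjusted p = 0.155, Fisher's exact test). Other junctions of the same pools also had higher direct shares for PQR/PQR. Deletional Sγ1 junctions stood at 23.7% for PQR/PQR and 12.9% for DNA-PKcs-/-, and inverted Sμ junctions at 16.2% and 7.18%.

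Among the 9 direct joins of PQR/PQR replicate 1, 2 reads shared the bait end and both prey ends, at 114578505. Counted once they leave 8 of 25 in that library and a difference between the pools of 14.4 points (adjusted p = 1.72e-04, Fisher's exact test), an alternative chosen after seeing the data.

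MH of 2 bp or more made up 45 of 102 inverted junctions (44.1%) in the PQR/PQR pool and 380 of 585 (65.0%) in the DNA-PKcs-/- pool, a difference of −20.8 points (adjusted p = 2.53e-04, Fisher's exact test). Deletional junctions of the same pools stood at 38.6% for PQR/PQR and 59.0% for DNA-PKcs-/-, so both orientations showed lower values for PQR/PQR. In the libraries the inverted values were 46.2% and 23.1% for PQR/PQR replicates 1 and 2, against 59.4% for DNA-PKcs-/- replicate 5. At the main threshold of 4 bp the shares were 13.7% and 22.1%, a difference of −8.33 points (−14.8 to 0.28) that was not called (adjusted p = 0.138, Fisher's exact test). MH of 4 bp or more was found in 4 of 26 and 2 of 13 inverted junctions of PQR/PQR replicates 1 and 2, against 4 of 32 of DNA-PKcs-/- replicate 5. Over listed junctions without insertion the mean MH was 1.56 ± 0.32 bp (SEM, 25 junctions) in PQR/PQR replicate 1 and 1.55 ± 0.47 bp (11 junctions) in PQR/PQR replicate 2, against 2.28 ± 0.28 bp (25 junctions) in DNA-PKcs-/- replicate 5.

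Insertions were found in 14 of 102 inverted junctions (13.7%) of the PQR/PQR pool and in 96 of 585 (16.4%) of the DNA-PKcs-/- pool, a difference of −2.68 points (−8.95 to 5.79, adjusted p = 0.662, Fisher's exact test). They numbered 1 of 26 and 2 of 13 in PQR/PQR replicates 1 and 2, against 7 of 32 in DNA-PKcs-/- replicate 5.

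Set against deletional junctions of the same pool, the inverted junctions of DNA-PKcs-/- had fewer direct joins. Direct joins were 7.35% of inverted and 12.9% of deletional junctions, a difference of −5.53 points (−7.55 to −3.00, adjusted p = 1.55e-04, Fisher's exact test). In DNA-PKcs-/- replicate 5 alone it was −4.59 points and was not called (adjusted p = 0.690, Fisher's exact test). In the PQR/PQR pool they were 22.5% and 23.7%, a difference of −1.20 points (−8.48 to 8.00) that was not called (adjusted p = 0.905, Fisher's exact test). Whether the gap differed between the pools was not tested.

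**Figure D5:**
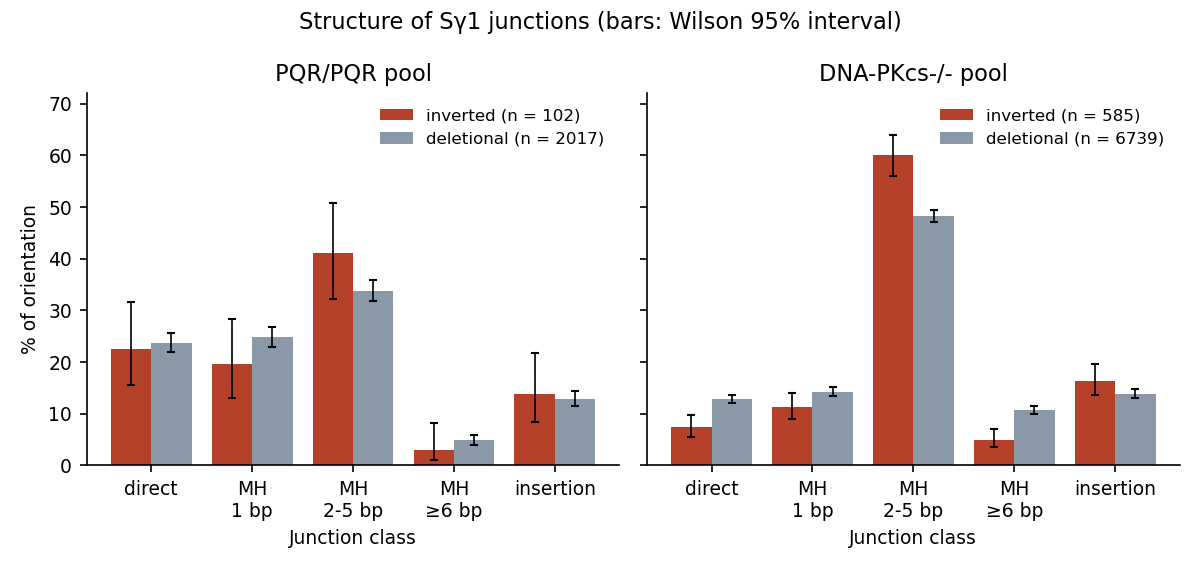
Bars give the percent of inverted and of deletional Sγ1 junctions that were direct, had MH of 1 bp, 2 to 5 bp or at least 6 bp, or had an insertion, in the PQR/PQR pool (left) and the DNA-PKcs-/- pool (right), with Wilson 95% intervals. The tallest bar is MH of 2 to 5 bp among inverted junctions of DNA-PKcs-/-, at 60%.

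In the DNA-PKcs-/- pool a larger share of inverted than deletional junctions had MH of 2 to 5 bp, a class not tested by itself. A smaller share had MH of 6 bp or more. MH of 2 to 5 bp made up 351 of 585 inverted (60%) and 48.3% of deletional junctions, while MH of 6 bp or more made up 29 of 585 inverted (4.96%) and 717 of 6739 deletional (10.6%). The difference at 6 bp or more was −5.68 points (adjusted p = 1.34e-05, Fisher's exact test), that at 2 bp or more was 5.99 points (adjusted p = 0.0107, Fisher's exact test), and that at the main threshold of 4 bp was −2.54 points (adjusted p = 0.285, Fisher's exact test). In the PQR/PQR pool MH of 2 to 5 bp made up 41.2% of inverted and 33.8% of deletional junctions, and MH of 6 bp or more 2.94% and 4.81%. In DNA-PKcs-/- replicate 5 the classes of 2 to 5 bp made up 56.2% of inverted and 57.5% of deletional junctions, and MH of 2 bp or more 59.4% and 63.7%, so the excess at these lengths was not seen in that library. Its MH of 6 bp or more was 1 of 32 inverted (3.12%) and 11 of 179 deletional junctions (6.15%).

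Insertions made up 13.7% of inverted and 12.9% of deletional junctions in the PQR/PQR pool, and 16.4% and 13.9% in the DNA-PKcs-/- pool, neither of which was called (adjusted p = 0.827 and 0.176, Fisher's exact test). In DNA-PKcs-/- replicate 5 alone they made up 7 of 32 inverted (21.9%) and 12 of 179 deletional junctions (6.70%, adjusted p = 0.0426, Fisher's exact test). The preys of inverted junctions shorter than 50 bp numbered 2 of 26 and 2 of 13 in PQR/PQR replicates 1 and 2 and 8 of 32 in DNA-PKcs-/- replicate 5.

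Inverted junctions within Sμ itself, which share bait and orientation, were set beside those in Sγ1 after seeing the data. Direct joins were 22.5% of inverted Sγ1 and 16.2% of inverted Sμ junctions in the PQR/PQR pool (adjusted p = 0.499, Fisher's exact test over 6 comparisons), and 7.35% and 7.18% in the DNA-PKcs-/- pool (adjusted p = 0.923, Fisher's exact test). The widest of the DNA-PKcs-/- gaps was in insertions, at 16.4% of inverted Sγ1 and 21.5% of inverted Sμ junctions, a difference of −5.04 points (−8.66 to −1.17) with adjusted p = 0.0748 in Fisher's exact test. None of the 6 comparisons passed the threshold of 0.05.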

How the data were processed

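Alignment with Bowtie2 to mm9 is recorded per the submitters' processing notes; which junction caller and filters followed is not given in the sources used here. Deposited values are counts of junctions by region, strand and class, and other values (positions and alignment bounds), as deposited by the authors; none is normalized. The members, thresholds and comparisons were chosen with earlier results of these data known. Gaps between the bait and prey alignments gave MH, direct or insertion. Classes from the listed inverted junctions equalled the deposited counts. The listed reads were used without 2 deletional lines of PQR/PQR replicate 1, while counts and positions included all 246 of its deletional junctions. Pool remainders are pool minus libraries. Shares have Wilson 95% intervals and differences Newcombe intervals; reads carry no molecular identifiers, so both cover counting error only. Two-sided Fisher's exact tests (scipy 1.17.1, Python 3.11.15) were adjusted by Benjamini-Hochberg over 13 results. Under an alternative, its p replaced the main p of that result among the 13, uncorrected for the number of alternatives. The tests were tried on simulated independent junctions with no spread between libraries or mice, so that trial cannot show how they behave with such spread. Named items were, by rule, the 3 fullest bins of 500 bp and 3 most used positions per unit, with ties counted or given, and for each library the longest MH, longest insertion and highest direct join.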

Additional observations from a re-analysis of the deposited data

Results flagged for a closer look

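A separate deposited sheet of large insertions and long MH, which was not read for the comparisons above, held 0 inverted Sγ1 junctions of the PQR/PQR pool and 4 of the DNA-PKcs-/- pool. Of those 4, 3 had insertions of 34 to 96 bp and 1 had MH of 26 bp. The same sheet held 2 deletional Sγ1 junctions of the PQR/PQR pool and 48 of the DNA-PKcs-/- pool. Whether these junctions are also among the pool counts above, whose classes reach such lengths, was not checked.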

How the results depend on the processing

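Of 13 results, 5 were called, and 85 values were computed under alternatives. With the libraries in place of the pools, the inverted share (−3.99 points) and the direct share (18.8 points), PQR/PQR minus DNA-PKcs-/-, and the direct share, inverted minus deletional, in DNA-PKcs-/- (−4.59 points) lost their calls, while the insertion share there became called (15.2 points). The same setting turned the MH difference of PQR/PQR minus DNA-PKcs-/- (2.88 points) and, inverted minus deletional in PQR/PQR, the direct (4.01 points) and insertion shares (−4.89 points). At 2 bp or more the MH difference between pools became called (−20.8 points) and the inverted minus deletional one in DNA-PKcs-/- turned (5.99 points); at 6 bp or more it was −5.68 points and called, and that in PQR/PQR turned (−1.87 points). The insertion difference between pools turned in both remainders (1.37 points) and at 2 bp or more (0.48 points), and the Sμ-side difference between pools turned in the remainders (−0.70 points). The Sμ-side gap in PQR/PQR lost its call in the remainder (3.27 points) and with the split 3 kb below the middle (4.14 points). Leaving out single libraries gave −3.87 to −2.96 points for the inverted share, 11.1 to 16.2 for the direct share, −2.93 to 0.70 for insertions between pools, −5.52 to 0.093 for direct joins in PQR/PQR and 6.44 to 13.5 for the Sμ-side gap in PQR/PQR. No paired analysis was possible by replicate number because the genotypes share none; PQR/PQR replicate 1 minus DNA-PKcs-/- replicate 5, of one sequencing run, gave −5.61 points for the inverted share. The 13 to 32 inverted junctions per library limit what library comparisons can show, and the causes of these changes were not tested.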
